A study of Mus musculus with 4 samples.

Results

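The 10 genes described here write, remove, read or anchor silent chromatin, and they were followed along the lineage in which an olfactory sensory neuron settles on its odorant receptor gene. They were taken as a named list from the 55511 features of the UMI tables. The list holds Kdm1a (also called Lsd1), Ehmt1, Ehmt2, Setdb1, Trim28, Cbx1, Cbx3, Cbx5, Lbr and Lmna, and all 10 passed the filter on low counts and were among the 12530 genes tested. Cells came from the main olfactory epithelium of 4 male C57BL/6 mice, aged 8 weeks, that had received no treatment and were at rest, and each mouse gave 1 library. Live nucleated cells (Hoechst+/DRAQ7-) were sorted after dissociation with papain and their RNA was counted from the 3′ end with 10x Genomics droplets. The deposited clusters placed 13631 of 15859 retained cells in the 7 types of the lineage. These were 210 cells of HBC1 and 544 of HBC2 (labelled as horizontal basal cells, the reserve stem cells), 202 GBC (globose basal cells, the dividing progenitors), 284 INP (immediate neuronal precursors), 866 iOSN1 and 1006 iOSN2 (early and late immature neurons) and 10519 mOSN (mature neurons). All animals were of 1 sex, age and strain, so nothing here compares conditions, and the comparisons are between cell types within each mouse.

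In the mouse, each olfactory neuron transcribes a single allele of a single odorant receptor gene out of a very large family, while the other family members stay silent. Receptor gene clusters are known to carry the heterochromatin marks H3K9me3 and H4K20me3 in the olfactory lineage, and Kdm1a, a histone demethylase, is known to be needed for the first receptor allele to become active and to be turned down once a functional receptor is made. Silent receptor genes gather into compact foci in the nucleus of the neuron, and Lbr, a protein of the inner nuclear membrane that tethers heterochromatin to the lamina, is known to disturb those foci when it is forced on in mature neurons.

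The libraries held between 23157467 and 32382702 UMIs and between 3006 and 4657 retained cells, and the median depth of a cell ranged over mice from 3288 to 9811 UMIs in INP and from 4004 to 6591 in mOSN. Levels are given as UMIs per 10000 UMIs of the same type and mouse, as the mean ± SD over the 4 mice, with the values of mice 1, 2, 3 and 4 in that order. A level so expressed is a share of a cell's counted RNA, and it was compared between types for 1 gene at a time, not between genes. Across libraries, 54 barcode sequences occurred more than once, which touched 52 retained cells. A doublet caller marked between 0.0351% and 0.616% of barcodes and was under 0.5% in 3 of the 4 mice, so it had not worked, and doublets were handled only by leaving out the barcodes with the highest scores as an alternative. The clusters had been made from the expression of these same cells, the members included. Each p-value between types is thus conditional on the types as deposited. The mouse was a block in the main fits. A p-value there sets a change against the spread left after differences between whole mice are removed. The quasi-likelihood fit pooled that spread over genes, so it is not the spread of 1 gene over the 4 mice alone. In the fit of dorsal against ventral mature neurons only the pooled spread entered the p-value.

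The types were named by the deposited clusters and were checked against marker genes. Summed levels of the 6 basal cell markers (Krt5 and Krt14 among them) were 55.4 in HBC1 and 33.8 in HBC2, the 5 GBC markers (Top2a and Mki67 among them) summed to 25.2 in GBC, and the 5 INP markers (Neurog1 and Neurod1 among them) to 79.2 in INP. Immature neuron markers such as Gap43 and Gng8 summed to 102.1 in iOSN1 and 42.2 in iOSN2, against 66.5 in INP, and mature markers such as Omp and Cnga2 to 41.4 in iOSN1, 213 in iOSN2 and 295 in mOSN. The HBC2 cluster carried more RNA of sustentacular cell markers, with a sum of 80.0 (57.8 to 123 over mice), and of respiratory markers, 82.7 (45.6 to 97.5), than of basal cell markers, so that its name rests on the deposited cluster. HBC1 held these markers at 6.00 and 11.7. The iOSN2 cluster held a lower sum of immature markers than INP. All 5 sustentacular markers were lower in GBC than in the mean of HBC1 and HBC2 (median log2 change -4.58), and the part of that RNA in the HBC level was not tested. The 4 HBC1 values alone lay below all GBC values for Kdm1a, Ehmt1, Cbx1 and Cbx3, and overlapped them for Trim28, Cbx5 and Lbr. GBC carried microvillar markers at 5.83 (2.93 to 8.62), stromal markers at 5.49 (2.68 to 9.01) and ensheathing glia markers at 2.99 (2.03 to 4.96), and the part of these RNAs in the GBC values was not tested.

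In GRCm38, Kdm1a lies on the minus strand of chromosome 4 (chr4:136550540-136602723), Ehmt1 on the minus strand of chromosome 2 (chr2:24789928-24919614), Ehmt2 on the plus strand of chromosome 17 (chr17:34898469-34914052) and Setdb1 on the minus strand of chromosome 3 (chr3:95323525-95357202). Trim28 is on chromosome 7 (chr7:12999114-13031035, plus strand). The HP1 genes are Cbx1 (chr11:96789127-96808640, plus), Cbx3 (chr6:51470360-51483704, plus) and Cbx5 (chr15:103191544-103239816, minus). The envelope genes are Lbr (chr1:181815335-181843046, minus) and Lmna (chr3:88480147-88509956, minus). All 10 are protein-coding. The counts come from the 3′ ends of their messages and do not separate isoforms, so that lamin A and lamin C, both products of Lmna, were counted as 1.

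The promoter of Kdm1a is shown because this gene had the largest change between precursors and mature neurons among the members. It is the 250 bases before the RefSeq start in GRCm38.p6, chr4:136602724-136602973 on the minus strand, with CpG dinucleotides in capitals. These 250 bases held 21 CpG, against a median of 6 over all RefSeq mouse promoters, and a GC content of 59.2%.
Kdm1a: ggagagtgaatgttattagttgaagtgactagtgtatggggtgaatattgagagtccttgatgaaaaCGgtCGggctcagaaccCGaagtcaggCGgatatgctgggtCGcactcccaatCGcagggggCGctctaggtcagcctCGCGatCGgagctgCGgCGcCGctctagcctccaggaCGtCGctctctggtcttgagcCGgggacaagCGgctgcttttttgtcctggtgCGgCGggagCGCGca

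Promoters of the same length were searched on both strands for an E2F motif (TTTGGCGC or TTTCCCGC), an EBF motif (CCCNNGGG) and an LHX2 motif (TAATTA), because 7 members were highest in the dividing GBC and because EBF and LHX2 act at receptor genes. The letters CCC of the second E2F motif can also be part of an EBF match. The motifs were present in 1.30%, 11.8% and 4.84% of 32851 promoters. Of the 14 promoter entries of the members, 1 held the E2F letters, 1 the EBF letters and 0 the LHX2 letters, and both hits were in Cbx3. The 2 sites of Cbx3 are on the plus strand at chr6:51470438-51470465 and chr6:51470517-51470544, 168 and 89 bases before the RefSeq start and inside the longer gene span given above. The motif is in capitals.
Cbx3 E2F: ggagccccgcTTTGGCGCgctccgagac
Cbx3 EBF: gccaggagacCCCCTGGGcgccacgccg
A match describes these letters only.

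Most of these genes were high in progenitors and precursors and low in neurons. Of the 10 members, 7 had their highest mean level in GBC (Ehmt1, Setdb1, Trim28, Cbx1, Cbx3, Cbx5, Lbr), Kdm1a had it in INP, and Ehmt2 and Lmna had it in HBC1. In cells thinned to 2000 UMIs Lbr was highest in HBC1 and Setdb1 in iOSN1, and counted per cell Ehmt2 was highest in GBC and Lmna in HBC2. In every member the 4 values of the highest type lay above the 4 values of the lowest type, a property that follows in part from picking the extremes of 7 types. The ratio of the highest to the lowest mean ran from 1.51 for Setdb1 to 9.77 for Lmna. A test for any difference among the 7 types called 9 of the 10 members, all but Setdb1 (adjusted p = 0.326), where it called 95.5% of all genes tested, so that a call by itself set the members apart from little.

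**Figure D1:**
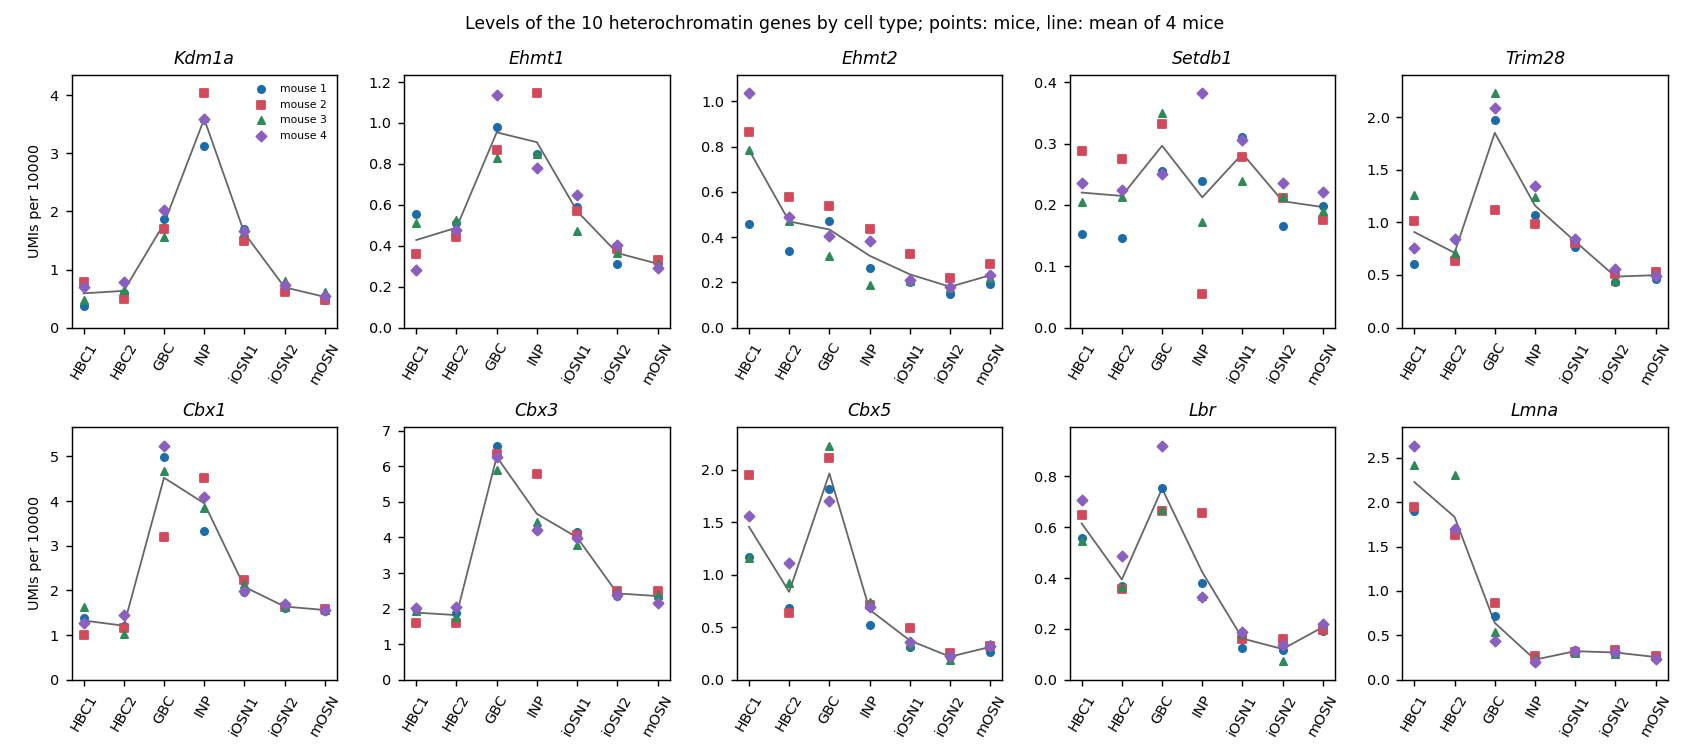
Level of each of the 10 genes (UMIs per 10000 UMIs, linear axes that start at 0) in the 7 types of the lineage. Points are the 4 mice and the line joins their means; Kdm1a stands highest in INP at 3.59, whereas Lmna stands highest in HBC1 at 2.23 and the 3 HP1 genes stand highest in GBC.

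Kdm1a, the lysine demethylase of the CoREST repressor complex, was highest in INP. The level was 3.13, 4.04, 3.61 and 3.60 in the INP of mice 1 to 4 (3.59 ± 0.371), 1.88, 1.70, 1.56 and 2.03 in GBC (1.79 ± 0.204) and 1.70, 1.498, 1.64 and 1.66 in iOSN1 (1.63 ± 0.0881). It was 0.626, 0.606, 0.803 and 0.736 in iOSN2 and 0.480, 0.471, 0.618 and 0.544 in mOSN (0.528 ± 0.0677), close to the 0.589 ± 0.193 of HBC1 and the 0.632 ± 0.117 of HBC2. The INP values of all 4 mice thus lay above every other type, GBC and iOSN1 overlapped, and iOSN2, HBC2, HBC1 and mOSN each overlapped the next type in that order. Counted per cell the order at the top was the same, with 1.96 UMIs in a GBC, 2.67 in an INP, 1.24 in an iOSN1, 0.544 in an iOSN2 and 0.284 in an mOSN.

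All 5 steps of the lineage were called for Kdm1a, although the iOSN2 and mOSN values of the last step overlapped between mice. It rose by 1.46 ± 0.13 (SE) on the log2 scale from the mean of the HBC types to GBC (2.75-fold, adjusted p = 4.26e-12) and by a further 0.98 ± 0.11 from GBC to INP (1.98-fold, adjusted p = 1.15e-09). It then fell by 1.15 ± 0.09 from INP to iOSN1 (2.22-fold, adjusted p = 8.76e-13) and by 1.06 ± 0.10 from iOSN1 to iOSN2 (2.08-fold, adjusted p = 9.53e-12). The last step, from iOSN2 to mOSN, was a fall of 0.37 ± 0.09 (1.29-fold, adjusted p = 0.00153), which was no longer called when cells were thinned to 2000 UMIs (adjusted p = 0.108). Within mice the mOSN level at that step was 0.738 to 0.778 of the iOSN2 level. From INP to mOSN the fall was 2.57 ± 0.09, with a 95% interval of the log2 change from -2.75 to -2.40 (5.96-fold, adjusted p = 2.01e-24). Over every alternative that change ran from -2.71 to -2.41 and those of the INP to iOSN1 step from -1.21 to -1.08. The rise from GBC to INP ran from 0.85 to 1.60, the larger value coming from the fit without cells that held a UMI of Mki67 or Top2a, which are made in dividing cells.

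Ehmt1 and Ehmt2, the paired methyltransferases GLP and G9a that place mono- and dimethyl marks on H3K9, are described one after the other. Ehmt1 was 0.980, 0.870, 0.827 and 1.14 in GBC and 0.850, 1.15, 0.847 and 0.782 in INP, which overlapped, and 0.313, 0.331, 0.311 and 0.292 in mOSN, below both in every mouse. Ehmt1 rose by 0.83 ± 0.15 on the log2 scale from HBC to GBC (adjusted p = 2.44e-05), fell by 0.66 ± 0.14 from INP to iOSN1 (adjusted p = 2.54e-04) and fell by 0.47 ± 0.13 from iOSN1 to iOSN2 (adjusted p = 0.00235). The adjusted p was 0.559 for INP against GBC and 0.207 for mOSN against iOSN2. Its fall from INP to mOSN was 1.32 ± 0.14 (adjusted p = 5.82e-11). The step from iOSN1 to iOSN2 was not called in thinned cells (adjusted p = 0.158), and the rise into GBC was not called without cells holding a Mki67 or Top2a UMI (log2 change 0.35, adjusted p = 0.374).

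Ehmt2 had its highest values at the start of the lineage, with 0.456, 0.865, 0.785 and 1.04 in HBC1, and its lowest in iOSN2, with 0.148, 0.217, 0.176 and 0.179. Every pair of neighbours in its order of types (HBC1, HBC2, GBC, INP, iOSN1, mOSN, iOSN2) overlapped. The mean level was 0.785 in HBC1, 0.469 in HBC2 and 0.433 in GBC. Ehmt2 fell by 0.56 ± 0.17 from the mean of HBC1 and HBC2 to GBC (adjusted p = 0.00643) and rose by 0.38 ± 0.14 from iOSN2 to mOSN (adjusted p = 0.0281). Neither call was firm, although within mice the mOSN level was 1.25 to 1.29 times the iOSN2 level. The fall was lost without mouse 3 (adjusted p = 0.0794) or mouse 4 (adjusted p = 0.105) and the rise without mouse 2 (adjusted p = 0.0856), mouse 3 (adjusted p = 0.0501) or mouse 4 (adjusted p = 0.0663). In thinned cells neither was called (log2 change -0.86, adjusted p = 0.0772, and 0.36, adjusted p = 0.314). The adjusted p was 0.0559 for INP against GBC, a pair called without mouse 4 (log2 change -0.72, adjusted p = 0.0339) and under the other scalings, and 0.0943 for iOSN1 against INP, 0.357 for iOSN2 against iOSN1 and 0.216 for mOSN against INP.

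Setdb1, the methyltransferase that places H3K9 trimethyl marks, and Trim28 (KAP1), the corepressor that brings it to zinc finger proteins, act together on zinc finger target sites. Setdb1 stayed between 0.196 ± 0.0195 in mOSN and 0.296 ± 0.0518 in GBC, with 0.240, 0.0545, 0.173 and 0.382 in INP, and all neighbours in its order overlapped. None of the 5 steps was called for Setdb1, with adjusted p from 0.145 for iOSN2 against iOSN1 to 0.921 for mOSN against iOSN2, although library size scaling called the former (log2 change -0.49, adjusted p = 0.0184), as did a fit of only the types compared (-0.37, adjusted p = 0.0441). The INP sums held 22, 1, 10 and 21 Setdb1 UMIs in mice 1 to 4.

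Trim28 was 1.97, 1.12, 2.23 and 2.09 in GBC, 1.07, 0.982, 1.24 and 1.35 in INP, 0.770, 0.809, 0.855 and 0.841 in iOSN1 and 0.432, 0.508, 0.441 and 0.557 in iOSN2. Its 4 iOSN1 values lay below all INP values and above all iOSN2 values, while GBC and INP overlapped through mouse 2. It rose by 1.09 ± 0.13 from HBC to GBC (adjusted p = 6.64e-09), then fell by 0.65 ± 0.14 into INP (adjusted p = 2.52e-04), by 0.59 ± 0.14 into iOSN1 (adjusted p = 6.56e-04) and by 0.58 ± 0.12 into iOSN2 (adjusted p = 1.72e-04). Between iOSN2 and mOSN, where it was 0.498 ± 0.0292, the adjusted p was 0.667. Without cells holding a Mki67 or Top2a UMI the log2 change into GBC was -0.023 (adjusted p = 0.972) and that into INP 0.34 (adjusted p = 0.259). The fall into iOSN1 was not called in thinned cells (adjusted p = 0.0627).

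The 3 HP1 genes encode chromodomain proteins that bind methylated H3K9, HP1-beta for Cbx1, HP1-gamma for Cbx3 and HP1-alpha for Cbx5. All 3 rose into GBC. Cbx1 was 4.98, 3.19, 4.68 and 5.24 in GBC and 3.32, 4.53, 3.86 and 4.09 in INP, which overlapped, and 1.97, 2.23, 2.14 and 1.98 in iOSN1. It rose by 1.66 ± 0.11 from HBC to GBC (3.15-fold, adjusted p = 6.08e-16), gave an adjusted p of 0.0908 between GBC and INP and fell by 0.94 ± 0.10 into iOSN1 (adjusted p = 1.72e-09). Between GBC and INP its sign depended on the cells kept. It was lower in INP without mouse 2 (log2 change -0.38, adjusted p = 0.00211) and with the other scalings, and higher without cells holding a Mki67 or Top2a UMI (0.49, adjusted p = 0.0140). In the later neurons it was 1.64 ± 0.0460 in iOSN2 (adjusted p = 0.178), where the values of 4 mice, 1.61 to 1.71, lay below all iOSN1 values, and 1.56 ± 0.0176 in mOSN (adjusted p = 0.724). The change into iOSN2 was called with library size scaling (log2 change -0.34, adjusted p = 0.00252) and in a fit of only the types compared (-0.22, adjusted p = 0.00326).

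By the levels of whole types, Cbx3 stepped down from GBC to iOSN2. It was 6.58, 6.34, 5.89 and 6.25 in GBC, 4.21, 5.78, 4.44 and 4.22 in INP, 4.14, 4.08, 3.79 and 4.00 in iOSN1 and 2.37, 2.50, 2.47 and 2.38 in iOSN2. The 4 mice of each of these types lay below those of the type before it, and mOSN (2.35 ± 0.137) overlapped iOSN2. Cbx3 rose by 1.54 ± 0.08 into GBC (2.90-fold, adjusted p = 2.86e-18), fell by 0.41 ± 0.09 into INP (adjusted p = 1.59e-04) and fell by 0.54 ± 0.07 from iOSN1 to iOSN2 (adjusted p = 1.49e-07). The step from INP to iOSN1 was small, a fall of 0.23 ± 0.08 (adjusted p = 0.0233), and it was lost without mouse 2 (adjusted p = 0.0963), mouse 3 (adjusted p = 0.108) or mouse 4 (adjusted p = 0.0552), without cells holding an immune or blood marker UMI (adjusted p = 0.123) or a Mki67 or Top2a UMI (adjusted p = 0.0618) and in 5 other alternatives, with a highest adjusted p of 0.378 in thinned cells (log2 change -0.16). Without cells holding a Mki67 or Top2a UMI, Cbx3 was higher in INP than in GBC by 0.33 on the log2 scale (adjusted p = 0.0368), the reverse of the fall over all cells. The 8 Cbx3 pseudogene features in the tables held 8 UMIs together against 20729 of Cbx3 itself (0.0386%).

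Cbx5 had its largest fall between GBC and INP. It was 1.81, 2.11, 2.23 and 1.70 in GBC, 0.523, 0.709, 0.743 and 0.691 in INP, 0.316, 0.490, 0.331 and 0.361 in iOSN1 and 0.214, 0.251, 0.187 and 0.229 in iOSN2, and no 2 of these types overlapped. HBC1, at 1.16, 1.95, 1.16 and 1.55, overlapped GBC. Its fall from GBC to INP was 1.49 ± 0.15 (2.80-fold, adjusted p = 2.49e-10) and remained called in every alternative, from -1.62 to -1.08. It rose by 0.63 ± 0.12 from HBC to GBC (adjusted p = 2.49e-05), a call lost without cells holding a Mki67 or Top2a UMI (log2 change 0.19, adjusted p = 0.508). It fell by 0.88 ± 0.17 into iOSN1 (adjusted p = 6.78e-05) and by 0.57 ± 0.16 into iOSN2 (adjusted p = 0.00300), and was then higher in mOSN, at 0.267, 0.322, 0.341 and 0.323, by 0.52 ± 0.13 (adjusted p = 0.00182). In thinned cells 3 of these steps were smaller and not called, with log2 changes of 0.12 from HBC to GBC (adjusted p = 0.749), -0.20 from iOSN1 to iOSN2 (adjusted p = 0.628) and 0.27 from iOSN2 to mOSN (adjusted p = 0.404).

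Lbr, which holds heterochromatin at the nuclear envelope, reached its lowest levels in the immature neurons. It was 0.754, 0.663, 0.668 and 0.920 in GBC, 0.381, 0.654, 0.328 and 0.327 in INP, 0.123, 0.159, 0.179 and 0.188 in iOSN1 and 0.115, 0.160, 0.0726 and 0.136 in iOSN2. The immature neuron values all lay below the INP values. It fell by 0.95 ± 0.20 from GBC to INP (adjusted p = 1.20e-04) and by 1.32 ± 0.22 from INP to iOSN1 (2.49-fold, adjusted p = 6.12e-06). Between iOSN1 and iOSN2 the adjusted p was 0.387.

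The mOSN values of Lbr, 0.191, 0.198, 0.224 and 0.218, lay above the iOSN2 values of all 4 mice. The rise was 0.81 ± 0.16 on the log2 scale (1.75-fold, adjusted p = 9.63e-05) and ran from 0.60 to 1.00 over the alternatives. Lbr is abundant in blood and immune cells, at 2.97 ± 0.676 and 1.63 ± 0.325 in the Blood and Immune clusters that lie outside the lineage. Markers of these cells were present at a low level in both types, with an immune sum of 0.054 (0.033 to 0.081, 6 of 6 markers above 0) in mOSN and 0.089 (0.025 to 0.183) in iOSN2, and a blood sum of 0.749 (0.124 to 1.63) and 0.449 (0.103 to 1.01). At least 1 UMI of such a marker was found in 24.2% of mOSN and 27.1% of iOSN2 cells. With those cells left out, Lbr was higher in mOSN by 0.93 (adjusted p = 1.48e-04), Cbx5 by 0.67 (adjusted p = 0.00197) and Ehmt2 by 0.49 (adjusted p = 0.0188). All 4 tested blood markers were higher in iOSN1 than in INP (median log2 change 3.75), where 41.8% of all genes were called. They were lower in iOSN2 than in iOSN1 (median log2 change -3.20), where 47.4% of all genes were called. The part of blood and immune RNA in the Lbr, Cbx5 and Ehmt2 values was not tested. Lbr remained below its precursor level, with a fall of 0.74 ± 0.18 from INP to mOSN (adjusted p = 5.77e-04) that thinned cells did not show as a call (adjusted p = 0.127). Its rise from HBC to GBC, 0.47 ± 0.16 (adjusted p = 0.0149), was lost without mouse 4 (adjusted p = 0.0777), in thinned cells (log2 change 0.23, adjusted p = 0.641) and without cells holding an immune or blood marker UMI (log2 change 0.29, adjusted p = 0.236), and had the opposite sign without cells holding a Mki67 or Top2a UMI (log2 change -0.83, adjusted p = 0.0620), as did its fall into INP (log2 change 0.15, adjusted p = 0.817).

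Lmna, which encodes the A-type lamins, was highest in the basal cells. It was 1.90, 1.95, 2.42 and 2.64 in HBC1 and 1.70, 1.62, 2.30 and 1.70 in HBC2, which overlapped, and 0.716, 0.870, 0.541 and 0.437 in GBC. In INP it had dropped to 0.196, 0.273, 0.242 and 0.200, and HBC1 held 10.0 times the INP level on average over mice (7.14 to 13.2). Lmna fell by 1.88 ± 0.14 from HBC to GBC (3.67-fold, adjusted p = 5.79e-14) and by 1.48 ± 0.25 from GBC to INP (adjusted p = 5.45e-06). The neurons were at 0.323 ± 0.0151 in iOSN1, 0.308 ± 0.0196 in iOSN2 and 0.257 ± 0.0184 in mOSN. None of the steps after INP was called (adjusted p = 0.0803, 0.635 and 0.175). The first was called as a rise with library size scaling (log2 change 0.59, adjusted p = 0.0437) and in cells with at least 2000 genes (0.71, adjusted p = 0.0316). The iOSN1 level lay above the INP level in 4 of 4 mice, where the INP held 48 Lmna UMIs in all. The mOSN values (0.230 to 0.270) lay below all iOSN2 values (0.288 to 0.331). From INP to mOSN Lmna was called as a rise with no filter on low counts (0.57, adjusted p = 0.0413) and in cells with at least 2000 genes (0.56, adjusted p = 0.0466). In GBC, Lmna was lower in the cells with a Mki67 or Top2a UMI than in the others in 3 of 4 mice, at 0.413 ± 0.331 against 1.49 ± 0.842.

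The counts of members called at each step were read against the share of all genes called. From HBC to GBC 7 members were higher and 2 lower, where 23.2% of all genes were higher and 50.9% were called in either direction. From GBC to INP 5 were lower and 1, Kdm1a, was higher, against 23.4% of all genes lower and 45.3% called. From INP to iOSN1 7 were lower and 0 higher, against 18.6% of all genes lower and 41.8% called. From iOSN1 to iOSN2 5 were lower and 0 higher, against 21.5% lower and 47.4% called. From iOSN2 to mOSN 3 were higher (Ehmt2, Cbx5, Lbr) and 1 lower (Kdm1a), against 16.5% higher and 35.1% called. Over the whole span from INP to mOSN 7 were lower and 0 higher, against 30.9% lower and 64.7% called. Neighbouring steps share the sums of a type, and the span from INP to mOSN holds the later steps, so these counts are not independent of one another.

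The median log2 change of the 10 members was 0.73 from HBC to GBC, -0.46 from GBC to INP, -0.63 from INP to iOSN1, -0.39 from iOSN1 to iOSN2 and -0.03 from iOSN2 to mOSN. The medians over all 12530 genes for the same steps lay near 0, at -0.11, -0.0034, 0.056, -0.0086 and 0.0086. With scaling by library size only, the median of all genes moved from -0.11 to 0.10 for HBC to GBC and from -0.0086 to -0.18 for iOSN1 to iOSN2, and the share of higher genes among those called moved from 45.6% to 57.3% and from 54.7% to 38.7%. None of the called member changes reversed its sign under that scaling.

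**Figure D2:**
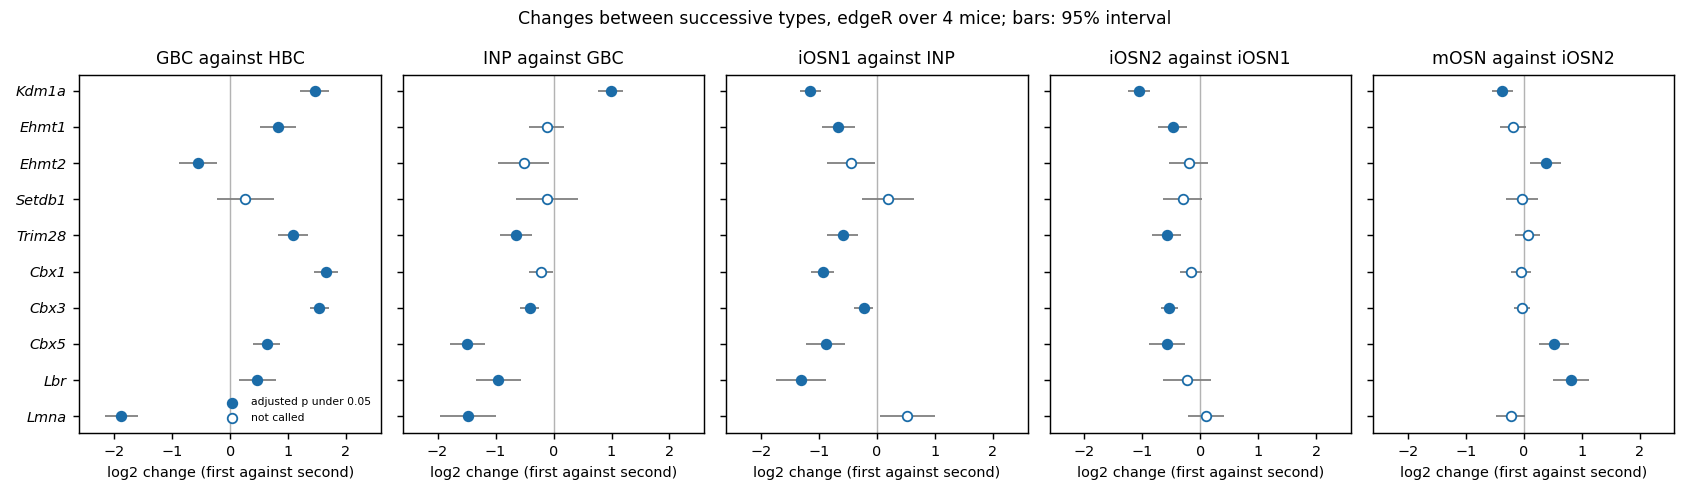
Log2 change of each of the 10 genes at the 5 steps of the lineage (linear axes, points from the fit over 4 mice with 95% intervals as bars, filled where the adjusted p was under 0.05). Kdm1a rises at 2 steps and falls at the 3 that follow, and the only rises called at the last step are those of Lbr, Cbx5 and Ehmt2.

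Many GBC held RNA of dividing cells. At least 1 UMI of Mki67 or Top2a, genes of dividing cells, was found in 120 of 202 GBC (59.4%) but in 28 of 284 INP (9.86%), 4.16% of iOSN1 and 0.770% of mOSN. In every mouse the GBC with such a UMI had more Kdm1a, Setdb1, Trim28, Cbx1, Cbx3, Cbx5 and Lbr than the GBC without. The means were 7.15 and 3.79 for Cbx3, 5.20 and 2.78 for Cbx1, 2.16 and 0.989 for Trim28 and 0.914 and 0.324 for Lbr. These cells were chosen by a measured gene, so the values are a description. The split used all UMIs of a cell, so a deeper cell was more likely to hold such a UMI. In mouse 1 the 57 GBC with one held 855044 UMIs and the 29 without held 205764. Setdb1 had only 5, 2, 1 and 0 UMIs in the GBC without, in mice 1 to 4. In INP the order for Kdm1a was the other way, with 2.72 in the cells with a UMI and 3.72 in those without, and the former lay lower in 4 of 4 mice. The former were only 12, 5, 5 and 6 cells in mice 1 to 4, with 24, 7, 20 and 11 Kdm1a UMIs.

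Without the cells that held a Mki67 or Top2a UMI, 4 members rather than 9 were called between HBC and GBC, and 2723 rather than 6373 of all genes, in a fit with 82 GBC. Kdm1a remained higher in GBC (log2 change 0.75, adjusted p = 0.0109), as did Cbx1 (0.77, adjusted p = 7.67e-04) and Cbx3 (0.60, adjusted p = 4.58e-04), and Lmna remained lower (-0.64, adjusted p = 0.0187). In the levels without these cells Cbx1, Cbx3, Ehmt1, Kdm1a and Trim28 were highest in INP, Cbx5 in GBC, Setdb1 in iOSN1, and Ehmt2, Lbr and Lmna in HBC1.

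**Figure D3:**
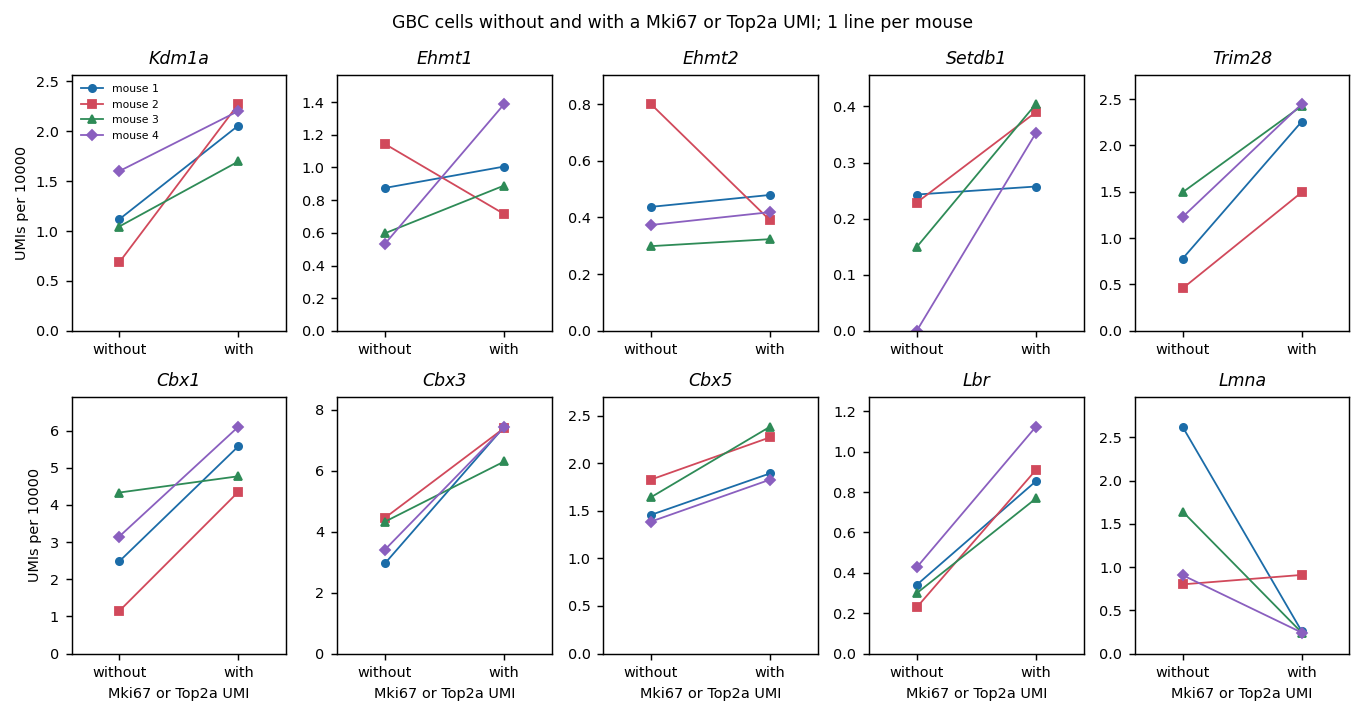
Levels (UMIs per 10000 UMIs, linear axes that start at 0) in the GBC of each mouse, split into cells without and with a UMI of Mki67 or Top2a, with a line for each of the 4 mice. Cbx3 lies higher in the cells with such a UMI in every mouse, whereas Lmna lies lower in 3 of the 4.

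The largest step in the share of cells with receptor RNA lay between INP and iOSN1. Receptor UMIs were summed over all 1430 receptor genes, with Olfr and Taar genes and Gucy1b2 among them. Those of a cell could thus come from more than 1 gene. In cells thinned to 2000 UMIs, 3 or more receptor UMIs were found in 3.20% ± 3.68 of GBC, 4.70% ± 4.18 of INP, 64.8% ± 4.42 of iOSN1, 92.6% ± 0.941 of iOSN2 and 94.4% ± 0.445 of mOSN. Sustentacular cells, which do not express receptors, gave 4.53%, and HBC1 and HBC2 gave 4.66% and 5.43%. By that measure the INP and GBC values overlapped those of the sustentacular cells over mice. At least 1 receptor UMI in the thinned cells was found in 26.3% of INP (24.2% to 28.6% over mice), 15.7% of sustentacular cells (14.5% to 18.0%), 11.1% of GBC and 84.9% of iOSN1, so that by this measure INP lay above the sustentacular cells without overlap. The microvillar group Mv1, outside the lineage, gave 21.3% (15.1% to 26.1%), which overlapped INP. The part of RNA free in the droplets in these shares was not tested. Without thinning, the shares with at least 1 UMI were 47.8% of INP, 93.1% of iOSN1 and 31.8% of sustentacular cells, at median depths of 7545.5, 6830.5 and 5587 UMIs. In receptor UMIs per 10000 the level went from 3.30 in INP to 39.0 in iOSN1, 76.2 in iOSN2 and 91.6 in mOSN, against 4.56 in sustentacular cells. The Kdm1a level was 3.59 in INP, 1.63 in iOSN1 and 0.528 in mOSN.

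**Figure D4:**
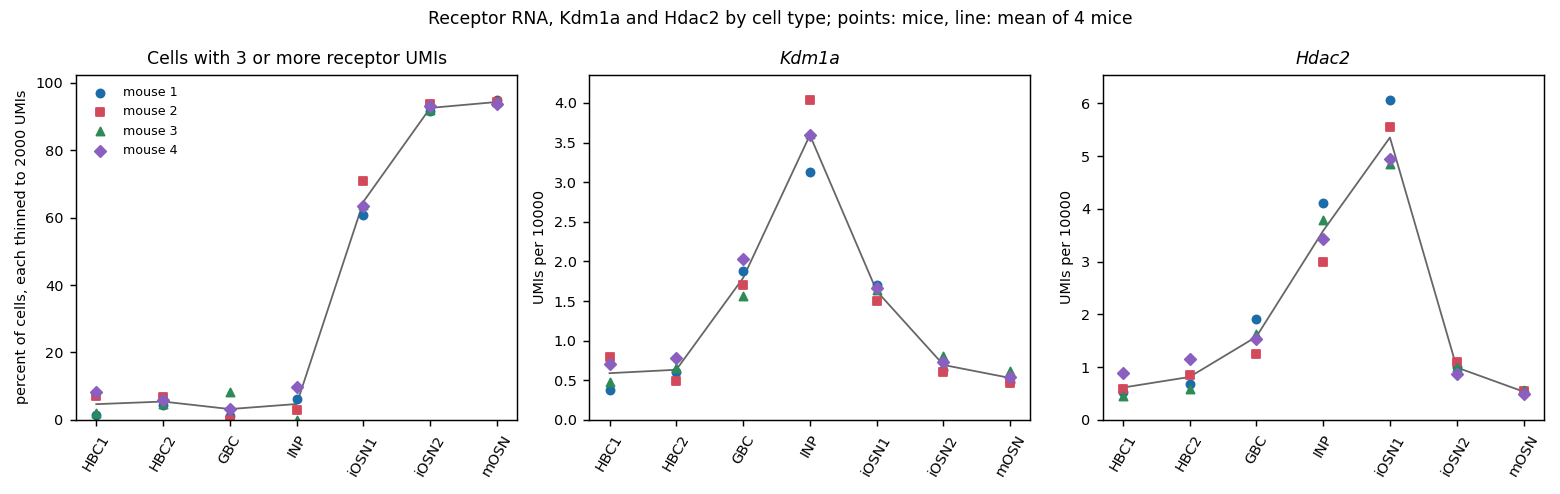
Share of cells with 3 or more receptor UMIs at 2000 UMIs per cell (percent) and levels of Kdm1a and its partner Hdac2 (UMIs per 10000 UMIs) by type, on linear axes that start at 0, with points for the 4 mice and a line through their means. The share goes from 4.70% in INP to 64.8% in iOSN1, the step at which Kdm1a goes from 3.59 to 1.63.

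Within iOSN1 the onset of receptor RNA could be set against the members directly. At 2000 UMIs, 556 iOSN1 cells had 3 or more receptor UMIs, 130 had none, 172 had 1 or 2 and were left out, and 8 were too shallow. Over all UMIs, 93.1% of iOSN1 held a receptor UMI, so some cells classed without a receptor did hold receptor UMIs. The question was whether the members differed between early neurons with and without detected receptor UMIs, whichever receptor genes these came from. Of the 9 members with enough counts, 1 was lower and 0 were higher in the cells with a receptor. Of the 7521 genes tested, 6.36% were lower and 12.0% were called in either direction. The share of members called was no higher than the latter, so the count does not set the members apart.

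That gene was Cbx3. It was 6.17, 5.08, 5.69 and 5.40 in the cells of mice 1 to 4 classed without a receptor (5.59 ± 0.462). In the cells classed with a receptor it was 3.55, 3.85, 3.24 and 3.67 (3.58 ± 0.255). The values did not overlap and lay lower in 4 of 4 mice. Cbx3 was lower by 0.70 ± 0.09 on the log2 scale (1.63-fold, adjusted p = 5.92e-08), with a range from -0.78 to -0.58 over the alternatives and an adjusted p of at most 2.81e-04. The cells with a receptor were also further along by their markers, which summed to 50.0 for mature neurons and 17.1 for INP, against 22.3 and 25.5 in the cells without. The part of that difference in the Cbx3 value was not tested. For INP as a whole Cbx3 was 4.66 ± 0.754 (4.21 to 5.78 over mice). The iOSN1 mean without a receptor, 5.59, thus lay above the INP mean, though the values overlapped. That pair was not tested.

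Kdm1a was at 1.51 ± 0.195 in the cells classed without and 1.58 ± 0.0527 in those classed with a receptor (adjusted p = 0.987). Setdb1, at 0.395 and 0.250, and Cbx5, at 0.463 and 0.358, were lower in the cells with a receptor in all 4 mice, with adjusted p of 0.187 and 0.410. Ehmt2, at 0.313 and 0.202, had an adjusted p of 0.165 and was called without mouse 2 (log2 change -1.15, adjusted p = 0.0444). Ehmt1 (0.617 and 0.555), Trim28 (0.737 and 0.781), Cbx1 (2.14 and 1.98) and Lmna (0.305 and 0.346) had adjusted p of 0.726, 0.919, 0.533 and 0.859. Lbr held 9 UMIs in the cells without and 74 in those with a receptor and was not tested. A p that misses the threshold leaves a difference of unknown size. The 130 cells classed without a receptor held between 153421 and 306225 UMIs a mouse.

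**Figure D5:**
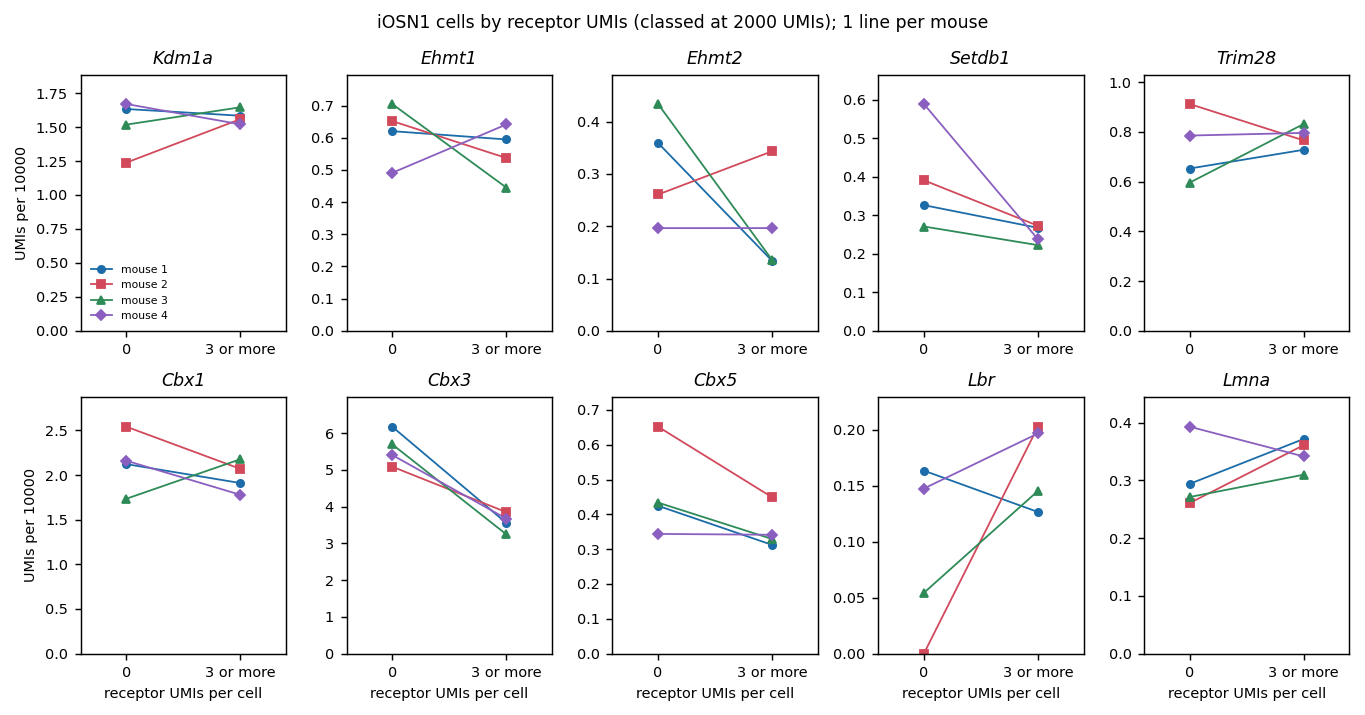
Levels (UMIs per 10000 UMIs, linear axes that start at 0) in the iOSN1 of each mouse, in cells with 0 and with 3 or more receptor UMIs at a depth of 2000, with a line for each of the 4 mice. Cbx3 falls in each mouse, from a mean of 5.59 to 3.58, whereas the lines of Kdm1a cross.

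Dorsal and ventral mature neurons draw on different receptor genes. Of the 10 members 2 were called between them, a share no higher than the 23.7% called among all 11023 genes tested, so the count does not set the members apart. The plain Dorsal and Ventral clusters held 1482 and 4600 cells. Both members were higher on the dorsal side, as were 12.2% of all genes. Lmna was 0.320, 0.370, 0.258 and 0.280 in dorsal and 0.238, 0.205, 0.244 and 0.219 in ventral cells, with no overlap. Lmna was higher by 0.47 ± 0.12 on the log2 scale (1.38-fold, adjusted p = 0.00104), which fell short of the threshold without mouse 2 (log2 change 0.35, adjusted p = 0.0538), with DESeq2 (adjusted p = 0.116) and in thinned cells (adjusted p = 0.0515). Cbx3 was 2.58, 2.44, 2.47 and 2.27 in dorsal and 2.32, 2.45, 2.34 and 2.16 in ventral cells, which overlapped. The change of 0.13 ± 0.05 (adjusted p = 0.0245) was lost without mouse 1 (adjusted p = 0.259), mouse 3 (adjusted p = 0.0667) or mouse 4 (adjusted p = 0.0577), with DESeq2 (adjusted p = 0.296) and in thinned cells (log2 change 0.038, adjusted p = 0.800), among other alternatives. Lbr lay higher on the dorsal side in 4 of 4 mice, at 0.236 against 0.197, with an adjusted p of 0.127, and was called in cells thinned to 2000 UMIs (log2 change 0.60, adjusted p = 0.0357). Kdm1a, at 0.509 and 0.543, had an adjusted p of 0.770. Trim28, at 0.538 and 0.490 (adjusted p = 0.202), was called without mouse 1 (log2 change 0.28, adjusted p = 0.0419).

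Outside the lineage the members had their own levels. The microvillar group Mv1, with 124 cells, held Cbx5 at 1.96 ± 0.229, as high as GBC, and Mv2, with 1768 cells, held Ehmt2 at 1.04 ± 0.272 and Cbx5 at 1.19 ± 0.0551. In the 336 sustentacular cells Kdm1a was 0.698, Cbx5 0.472 and Lbr 0.262, and in Mv2 they were 0.718, 1.19 and 0.299. No test was made of these types.

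The partners of the members were read from lists of chromatin genes. The list for the LSD1-CoREST complex also held Kdm1b. Between INP and mOSN, 9 of its 13 tested genes were lower in mOSN and 1 was higher, with a median log2 change of -1.45 where that of all genes was 0.07. In this comparison, which all the lists that follow share, 30.9% of all genes were lower in mOSN and 64.7% were called in either direction. Rcor2, a CoREST protein that binds Kdm1a, went from 0.702 in INP to 0.00696 in mOSN (log2 change -6.25 ± 0.32, adjusted p = 2.14e-19). Hdac2, the histone deacetylase of the complex, went from 3.58 to 0.535 (-2.64 ± 0.11, adjusted p = 4.48e-22), although it was highest in iOSN1, at 5.35. Kdm1b, the other flavin-dependent H3K4 demethylase, was also lower (-4.17, adjusted p = 5.39e-08), from a low INP level of 0.0873.

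Genes of H3K9 methylation were mixed, with 6 of 12 lower and 2 higher in mOSN than in INP and a median of -0.40, where 64.7% of all genes were called. Cdyl2, a chromodomain protein, went from 2.49 to 0.0140 (-7.30 ± 0.19, adjusted p = 9.16e-29) and Zfp644, a zinc finger partner of the Ehmt enzymes, from 7.38 to 1.16 (-2.53 ± 0.08, adjusted p = 2.49e-26). Tasor, a scaffold of the HUSH silencing complex, rose from 0.185 to 1.94 (3.63 ± 0.16, adjusted p = 7.83e-22). Of 9 genes of H3K9 demethylation 4 were lower, with Kdm4b (-2.72), Kdm7a (-2.25) and Kdm3b (-1.31) among them, and 2 were higher. Of the 3 H4K20 methyltransferases 2 were lower, Kmt5c (-1.32, adjusted p = 3.26e-07) and Kmt5b (-0.38, adjusted p = 0.00787), the latter not called without mouse 1 (-0.17, adjusted p = 0.347).

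Polycomb genes divided evenly, with 7 of 15 higher and 6 lower and a median of 0.34. Ezh2, the H3K27 methyltransferase, went from 4.08 to 0.158 (-4.52 ± 0.10, adjusted p = 2.90e-30), while the chromodomain protein Cbx8 rose (0.118 to 1.12, log2 change 3.21). Of 13 genes of DNA methylation 5 were lower, such as Tet1 (-1.51) and Mbd3 (-0.67), and 3 higher, such as the methyltransferase Dnmt3a (0.90). Of 17 genes of the lamina and envelope 8 were lower and 3 higher, with a median of -0.04. Among them the linker gene Sun2 fell (-3.61, adjusted p = 9.77e-12) from 0.143 to 0.0106, and Sun1 rose (1.47, adjusted p = 1.09e-12) from 0.583 to 1.46, as did Ankle2 (1.09, adjusted p = 1.19e-05).

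Chromatin architecture genes were mostly lower in mOSN, 15 of 21, with 2 higher and a median of -0.57, where 30.9% of all genes were lower. Smchd1, a structural maintenance protein known from X inactivation, went from 13.3 to 0.648 (-4.23 ± 0.09, adjusted p = 1.22e-31), Hmgb3 from 2.11 to 0.298 (-2.65) and the centromeric histone Cenpa from 0.146 to 0.0199 (-2.66). Of the genes of receptor choice and feedback all 13 were called, 7 higher and 6 lower. Lhx2, which binds receptor enhancers, went from 32.0 to 4.89 (-2.55 ± 0.15, adjusted p = 5.22e-18), Atf5, the factor of the receptor feedback, from 15.1 to 32.1 (1.23, adjusted p = 2.92e-07) and Ebf1 from 18.9 to 12.4 (-0.47, adjusted p = 0.0394). The Ebf1 call was lost without mouse 3 (adjusted p = 0.0959). Cell cycle genes were lower in mOSN for 17 of 20, with a median of -2.74. Stmn1, which acts on microtubules and is not confined to dividing cells, made up most of that list's RNA in INP, at 45.7, and fell (-5.00) together with Ube2c (-5.89) and Top2a (-3.90).

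The same lists were set against receptor detection in iOSN1. Of 10 tested LSD1-CoREST genes 2 were lower in the cells with a receptor and 0 higher, and of 10 H3K9 methylation genes 3 were lower and 0 higher, where 6.36% of all genes were lower and 12.0% were called. Hdac2 was lower by 1.10 ± 0.09 on the log2 scale (adjusted p = 1.60e-15), Lhx2 by 0.94 (adjusted p = 3.94e-14) and Ebf1 by 0.75 (adjusted p = 2.11e-14). Smchd1 was lower by 0.81 (adjusted p = 1.66e-05), a call not kept when cells were classed at 4000 UMIs (log2 change -0.44, adjusted p = 0.124). Of 11 tested genes of receptor choice 3 were higher and 6 lower, and of 13 Polycomb genes 2 were higher and 1 lower, where 5.66% of all genes were higher. Atf5 was higher by 0.23 (adjusted p = 0.00193), a call lost with DESeq2 (adjusted p = 0.145). The cells with a receptor were also further along by their markers, and the part of that in these values was not tested.

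The genes whose profile was most like that of each member were found by Pearson's r over the 28 sums of type and mouse, which share libraries and depth, so r is given as a description. Kdm1a was closest to Ptma (r = 0.968), Prdx2 (0.949) and Smarcd2 (0.948). Cbx1 was closest to Rbmx (0.960), Sfpq (0.949) and Rbbp4 (0.940), and Cbx3 to Srsf3 (0.960), Smarcc1 (0.956) and Rbbp4 (0.950). Lbr was closest to another member, Cbx5 (0.931), and Lmna to Ctsl (0.970). Setdb1 had no close companion, with Tpp2 nearest at 0.791. Among the members themselves Cbx1 with Cbx3 (0.928), Ehmt2 with Lmna (0.826) and Kdm1a with Cbx3 (0.806) were alike, and Cbx3 with Lmna were least alike (-0.559).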

How the data were processed

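The UMI counts of the 4 libraries were deposited by the authors as gene by barcode matrices made with Cell Ranger 6.0.1 on GRCm38, per the labels, with an Ensembl annotation whose receptor gene ends had been redrawn, per the study's methods. The retained cells and their types were taken from the cell annotation that the authors deposited, after their limits of at least 1000 genes and at most 10% mitochondrial UMIs, and the merged table held the same counts as the 4 matrices (0 of 55511 rows differed). UMIs were summed per mouse and type, and the sums were fitted with edgeR 4.0.16 (R 4.3.3; TMM scaling, filterByExpr by type, quasi-likelihood test) with the mouse as a block and Benjamini-Hochberg adjustment at 0.05 over all genes tested. The 1430 receptor genes were left out of the tests and of the library sizes of the fits. They were kept in the UMI totals to which the levels refer, so levels and tests were scaled differently. In the mOSN of mouse 1 the fitted library size was 16561362, against 16823095 UMIs in all. The same mouse and library gave every type, which is where the pairing comes from. The type fit had 28 sums, the receptor classes of iOSN1 and the dorsal and ventral sides 8 sums each, and 9 comparisons were made. DESeq2 1.42.0 was an alternative, and scanpy 1.11.5 gave the doublet scores. Tested on simulated data, the fit recovered 54% of genes changed by 1 and 91% of those changed by 2 on the log2 scale for mOSN against INP (12530 genes), 64% and 87% for the receptor classes (7521 genes) and 91% and 99% for dorsal against ventral (11023 genes).

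The members and the lists of other genes were chosen with earlier results of these data known. All 10 members are named. Of each chromatin list, the genes called between INP and mOSN with the 3 largest changes are named, of the cell cycle and receptor choice lists the 3 of the highest mean level, save what is not reported here, and for likeness the genes with the highest r of log2 CPM (prior count 2, mean of at least 5). Positions are those of GENCODE M21 on GRCm38, matched by gene ID, and promoters those of RefSeq on GRCm38.p6, and all 10 members had a promoter entry. No protein sequence was used here.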

Additional observations from a re-analysis of the deposited data

Results flagged for a closer look

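Of 140 groups of 4 mice, 6 had a mouse whose gap to the others was large for the range of the group, where chance gives about 1 in 20, and 3 of the 6 were in mouse 2. In INP, mouse 2 stood above the others for Cbx3 (5.78 against 4.21 to 4.44) and for Lbr (0.654 against 0.327 to 0.381, from 12 UMIs). In iOSN1 mouse 2 stood above for Ehmt2, at 0.325 against 0.202 to 0.208. Mouse 4 stood above for Cbx1 in iOSN2 (1.71 against 1.61 to 1.62) and for Lbr in HBC2 (0.488 against 0.358 to 0.367), and mouse 3 for Lmna in HBC2 (2.30 against 1.62 to 1.70).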

How the results depend on the processing

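Of 41 calls of members, 23 kept their direction and their call under every alternative, and the sign was reversed only without cells holding a Mki67 or Top2a UMI, for Trim28 (-0.023) and Lbr (-0.83) from HBC to GBC and for Trim28 (0.34), Cbx3 (0.33) and Lbr (0.15) from GBC to INP. That setting, and the ones without immune or blood marker cells, with receptor-typed mature neurons and with all dorsal and ventral clusters, were chosen after seeing the data. Thinning keeps at most 2000 UMIs a cell. Some calls were lost there with a smaller change, as for Cbx5 from HBC to GBC (0.12 against 0.63), and the cause was not tested. For the chromatin and lineage genes named, 31 of 40 calls were kept.

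In cells thinned to 2000 UMIs the numbers of genes called were 6693 (any difference), 2647 (HBC to GBC), 2116 (GBC to INP), 2330 (INP to iOSN1), 3147 (iOSN1 to iOSN2, 3 members), 2105 (iOSN2 to mOSN, 1 member), 4170 (INP to mOSN), 322 (receptor classes) and 1257 (sides, 1 member, Lbr, which was not called over all UMIs). From HBC to GBC, 2723 genes and 4 members were called without cells holding a Mki67 or Top2a UMI and 4045 genes with only the types compared, which gave 3446 from GBC to INP. For the receptor classes, DESeq2 called 348 genes, the fit without immune or blood marker cells 542 and the classing at 4000 UMIs 533. For the sides, DESeq2 called 1076 genes and 0 members, and 1 member was called with library size only, with no filter on low counts, at 2000 genes or more per cell and without immune or blood marker cells. Library size only moved the share of higher genes among those called from 47.1% to 57.6% for the receptor classes and from 51.5% to 36.2% for the sides.

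Leaving out 1 mouse at a time gave, over all genes and over members, 10785 to 12076 and 9 (any difference), 4960 to 6159 and 7 to 9 (HBC to GBC), 4240 to 5290 and 6 to 7 (GBC to INP), 4192 to 4818 and 6 to 7 (INP to iOSN1), 4901 to 5335 and 5 (iOSN1 to iOSN2), 3405 to 3707 and 3 to 4 (iOSN2 to mOSN), and 6887 to 7952 and 7 (INP to mOSN). It gave 582 to 925 and 1 to 2 for the receptor classes, with 593 without mouse 1 and 582 without mouse 4, and 1998 to 2182 and 1 to 2 for the sides.

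Without the replicate block the counts were 11924, 6330, 5583, 5068, 5609, 3746, 7989, 806 and 1193 in the order of the comparisons above, with 6 members from INP to iOSN1, 3 from iOSN2 to mOSN and 1 for the sides. The pairing by mouse changed no other count of members. The cause of these changes was not tested.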
